A study of Arabidopsis thaliana with 72 samples.

Results

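Whole Arabidopsis thaliana seedlings of the phr1 phl1 double mutant were compared with the wild type Col-0 on full phosphate medium that contained flg22, a peptide of bacterial flagellin. The libraries were chosen by their titles, which name genotype, phosphate level, treatment, experiment and replicate. They are 6 libraries of phr1 phl1 and 6 of Col-0, or 12 of the 72 in the series. Experiments A and B gave 3 libraries to each group. Per the labels' protocols, the seedlings behind all 12 spent their first 7 days on plates of Johnson medium (1 mM phosphate, 1% sucrose). They then spent 12 days at the same phosphate and sucrose with 1 µM flg22 added, under 9 h light and 15 h dark. The other 10 groups cover untreated and methyl jasmonate (MeJA, 10 µM) seedlings, and the same 3 treatments at about 5 µM phosphate. Neither the mutant alleles nor the number of seedlings per library is given in the labels. The series text speaks of biological replicates from independent experiments, but no label states whether the 3 libraries from an experiment were grown apart. The p-values therefore reflect sample-to-sample spread, which may be technical in part.

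PHR1 and PHL1 are related MYB-CC transcription factors, which switch on phosphate starvation genes through a short element in their promoters. SPX proteins hold PHR factors back when phosphate is plentiful, with inositol pyrophosphates as the signal, so full phosphate medium is the state in which these factors are least active. Among the outputs of PHR1 is the microRNA miR399, which pairs with the transcript of PHO2, a ubiquitin conjugase that removes phosphate transporters. The peptide flg22 is bound by the receptor kinase FLS2 with its partner BAK1, and the kinase BIK1 carries the signal to pattern-triggered immunity.

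PHO2 is the target through which miR399 links PHR1 to phosphate transport, and the sequences involved are shown for that reason. The annotated form miR399c-5p differs at bases 2 to 8, the seed, and was left out. The 6 mature miR399 forms shown were selected for carrying the family's seed (TAIR10.1, RefSeq). They make 5 distinct sequences, since those of MIR399b and MIR399c-3p are identical. The seed is in capitals.
miR399a: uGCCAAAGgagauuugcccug
miR399b: uGCCAAAGgagaguugcccug
miR399c-3p: uGCCAAAGgagaguugcccug
miR399d: uGCCAAAGgagauuugccccg
miR399e: uGCCAAAGgagauuugccucg
miR399f: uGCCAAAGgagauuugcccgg

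The annotated PHO2 transcript of 4176 bases holds 5 stretches of 21 bases with at least 17 Watson-Crick pairs to miR399a. All 5 lie in the 5′ UTR, on the minus strand of chromosome 2. The best pairing anywhere else in the transcript was 12 bases. Capitals mark the bases that pair with miR399a, 18 in the fourth stretch and 19 in each of the others.
PHO2 site 1, chr2:14282106-14282126: tAGGGCAAATCTtCTTTGGCA
PHO2 site 2, chr2:14281973-14281993: tAGGGCAtATCTCCTTTGGCA
PHO2 site 3, chr2:14281884-14281904: ttGGGCAAATCTCCTTTGGCA
PHO2 site 4, chr2:14281827-14281847: tcGaGCAAATCTCCTTTGGCA
PHO2 site 5, chr2:14281770-14281790: tAGaGCAAATCTCCTTTGGCA
The end of every stretch, CTTTGGCA, pairs with the whole seed. The MIR399 loci were not analysed here.

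Sequencing depth in the 12 libraries ran from 2494827 to 5475710 counts, with a median of 3857997. The median was 4067220 in Col-0 and 3857997 in phr1 phl1. Levels are given as CPM, counts scaled to a fixed library size after TMM correction. The first principal component of the 1000 most variable genes held 35.6% of the variance and separated the experiments, with A at -22.7 to -6.12 and B at 7.83 to 27. On the second component (20.2%) Col-0 A1 stood apart at 32, while the other 5 Col-0 libraries lay between 0.127 and 10.2 and the mutant libraries between -14.9 and -0.931. Markers of green tissue summed to 79880 to 127200 CPM in Col-0 and 88240 to 107900 CPM in the mutant. Root hair markers summed to 155.7 to 342.7 CPM and 189.3 to 308.8 CPM, and endodermis markers to 118.7 to 169.6 CPM and 111.9 to 155.8 CPM. Seed storage genes, which mark embryos, summed to at most 2.439 CPM in any library, with 4 of the 8 at 0 in all 12.

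PHR1 and PHL1, the mutated genes, were looked at first. The labels give no alleles, so no direction was set in advance for either gene. PHR1 (AT4G28610, chr4:14132811-14135292, minus strand) lay between 49.8 and 63.4 CPM in the 6 Col-0 libraries, with a median of 56.4. In phr1 phl1 it lay between 16.2 and 31.5 CPM, with a median of 25.4. Every mutant library was thus below every wild-type library, and PHR1 fell by 1.22 ± 0.17 on the log2 scale (± SE, n = 6 and 6, edgeR quasi-likelihood test with Benjamini-Hochberg adjustment over 18583 genes, adjusted p = 2.44e-06). PHL1 (AT5G29000, chr5:11021980-11024978, minus strand) went the other way. Its level was 6.9 to 17.7 CPM in Col-0 (median 12.2) and 59.5 to 75.2 CPM in phr1 phl1 (median 72.1), a rise of 2.52 ± 0.22 (adjusted p = 2.35e-13) that was also without overlap. Counts over a whole gene do not show whether the transcript is intact or whether a protein is made. The PHR1 annotation overlaps AT4G28600 on the other strand, and the libraries do not keep strand, so reads of overlapping genes cannot be told apart. Of the related factors, PHL2 differed by 0.13 ± 0.13 (25.2 to 37.7 CPM in Col-0, 29.6 to 36.6 CPM in the mutant), PHL3 by 0.056 ± 0.16 and PHL4 by 0.18 ± 0.16, with adjusted p = 1 for each. No other tested gene within 50 kb of PHR1 (16 genes) or of PHL1 (1 gene) passed the threshold.

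Across the genome few genes separated the genotypes under these conditions. At an adjusted p under 0.05, 16 genes rose in phr1 phl1, 0.0861% of the 18583 tested, and 6 fell (0.0323%). At an unadjusted p under 0.05 the numbers were 669 higher (3.6%) and 481 lower (2.59%). The median change over all genes was -0.002. The 22 genes, PHR1 and PHL1 among them, lie on all 5 chromosomes, between 3 and 6 on each. The ranges of the 2 groups did not overlap in 15 of the 22, against 78 of all genes tested (0.42%). The change was over 1 on the log2 scale in 12 of the 22. The direction was the same in both experiments for all 22. The genes were selected on these same libraries, which favours both a shared direction and non-overlap. The count depended on single libraries. It was 10, 15 and 16 without Col-0 A1, A2 and A3, and 8, 37 and 6 without Col-0 B1, B2 and B3. It was 10, 6 and 6 without phr1 phl1 A1, A2 and A3, and 16, 21 and 27 without phr1 phl1 B1, B2 and B3. PHL1, AT1G07920, PHO2, PAP10, PHR1 and ARP9 passed the threshold in all 12 of these fits.

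**Figure D1:**
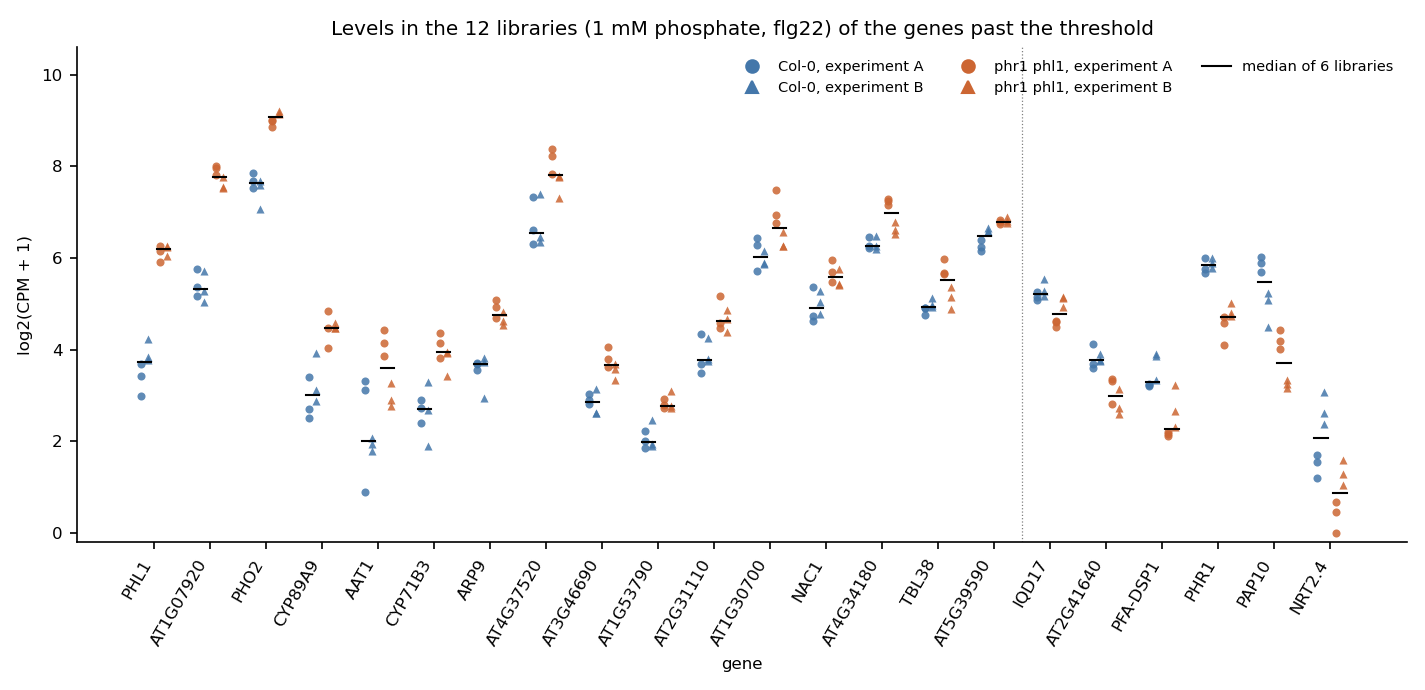
Level of each of the 22 genes past the threshold in the 12 libraries, as log2(CPM + 1) against the gene, in order of the log2 change. Circles are experiment A, triangles experiment B, lines the median of 6 libraries. Genes left of the dotted line rose in phr1 phl1, and PHL1, AT1G07920, PHO2 and ARP9 show no overlap between the genotypes.

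Of the phosphate signalling genes, PHO2 (AT2G33770, chr2:14277558-14283113, minus strand) rose in the mutant. Its level in Col-0 was 134 to 229 CPM (median 198), and in phr1 phl1 it was 462 to 586 CPM (median 538). The lowest mutant library was above the highest wild-type library. The change was 1.496 ± 0.16 (adjusted p = 8.7e-10), with 1.27 ± 0.21 in experiment A and 1.70 ± 0.21 in experiment B. In bulk samples, a change in the number of cells of a type and a change in RNA per cell cannot be told apart.

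PAP10 (AT2G16430, chr2:7120372-7123079, minus strand), a purple acid phosphatase of the root surface that releases phosphate from organic compounds, fell. It lay at 21.6 to 64.2 CPM in Col-0 (median 43.6) and 8.03 to 20.5 CPM in phr1 phl1 (median 12.1). In both genotypes the libraries of experiment A were higher than those of experiment B, yet the genotypes did not overlap. The change was -1.73 ± 0.23 (adjusted p = 7.73e-07), at -1.69 in A and -1.84 in B. PFA-DSP1 (AT1G05000), a phosphatase that cleaves inositol pyrophosphates, fell by 1.15 ± 0.23 (adjusted p = 0.016). It lay at 8.19 to 13.9 CPM in Col-0 and 3.32 to 8.35 CPM in the mutant, so that mutant B2 reached into the wild-type range.

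The list of phosphate sensing and signalling holds 8 genes, and the 7 besides PHO2 were short of the threshold. The SPX inhibitors SPX1, SPX2, SPX3 and SPX4 differed by -0.009 ± 0.39, -0.003 ± 0.15, -0.28 ± 1.22 and -0.13 ± 0.17. SPX1 lay at 5.91 to 16.1 CPM in Col-0 and 5.39 to 11.8 CPM in the mutant, but the experiments went opposite ways. In A, SPX1 was at 15.5, 16.1 and 11.1 CPM in Col-0 and 5.39, 10.9 and 10.9 CPM in the mutant. In B it was at 7.31, 5.91 and 6.88 CPM in Col-0 and 11.8, 9.16 and 11.2 CPM in the mutant. No gene passed the test of a difference between the experiments. SPX3 rested on 5 counts in Col-0 and 4 in the mutant. IPS1, a non-coding RNA that sequesters miR399, stood at 0.169 to 2.44 CPM in Col-0 (median 0.736) and 1.21 to 12.4 CPM in the mutant (median 6.72). All 3 mutant libraries of experiment A were above every wild-type library, and those of experiment B were at 4.26, 2.42 and 1.21 CPM. The difference of 2.61 ± 0.66 had an adjusted p of 0.0842. AT4, a related RNA, differed by -0.64 ± 0.48 (adjusted p = 1). In experiment A its mutant libraries, at 1.51, 10.1 and 3.62 CPM, were below those of Col-0 at 15.1, 24.8 and 13 CPM. In experiment B they overlapped, at 14.3, 6.73 and 21.6 CPM in the mutant and 10.3, 9.46 and 16 CPM in Col-0.

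Phosphate transport genes, 16 in the list, had 11 members above the low-count filter, and 10 of these had a negative change. The median was -0.28, with 0 past the adjusted threshold. At an unadjusted p under 0.05, 3 were lower, against 2.59% of all genes in that direction. These 3 were the high-affinity transporter PHT1;2 (-1.61 ± 0.51, adjusted p = 0.301), the transporter traffic factor PHF1 (-0.41 ± 0.17) and the glycerol-3-phosphate permease G3PP1 (-0.37 ± 0.18). In experiment A, G3PP1 was at 61.2, 51.2 and 36.1 CPM in Col-0 and 30, 31.9 and 23.5 CPM in the mutant. In B it overlapped, at 97.7, 101 and 110 CPM and 102, 97.2 and 92.2 CPM. G3PP4 was the 1 tested member without overlap (24.6 to 34.4 and 17.5 to 24.3 CPM), beside 0.42% of all genes. PHT1;2 stood at 0.582 to 5.69 CPM in Col-0 and 0.243 to 1.34 CPM in phr1 phl1, with overlap, and its counts are uncertain because PHT1;1 is a close paralog. PHT1;1 itself lay at 87.1 to 131 CPM and 70.3 to 144 CPM. Of 16 phosphatases and phosphate recycling genes 13 were tested, with PAP10 the only call. PAP1 was higher at an unadjusted p under 0.05 (0.71 ± 0.22, adjusted p = 0.253), at 7.32 to 9.97 CPM in Col-0 and 11.4 to 15.8 CPM in the mutant. Genes that exchange membrane phospholipids for phosphate-free lipids had 15 of 17 tested, 0 with an unadjusted p under 0.05 and a median of 0.01, at -0.18 in experiment A and 0.26 in experiment B.

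AT1G07920 (chr1:2454771-2457321, plus strand), which encodes elongation factor 1-alpha of protein synthesis, rose from 32.1 to 53 CPM in Col-0 (median 39.1) to 184 to 254 CPM in phr1 phl1 (median 218). The change was 2.39 ± 0.24 (adjusted p = 6.38e-11), without overlap. Its annotation overlaps the pseudogene AT1G44370 on the same strand. It has 3 close paralogs, AT1G07930, AT1G07940 and AT5G60390. How reads that match several copies were counted is not given in the sources used here, so the level of a single copy is uncertain. The paralogs were at 187 to 282, 160 to 240 and 2170 to 3010 CPM in Col-0. They differed by 0.27 ± 0.13, -0.079 ± 0.14 and -0.016 ± 0.13, with adjusted p = 0.77, 1 and 1. ARP9 (AT5G43500, chr5:17469490-17473619, plus strand), an actin-related protein, rose by 1.24 ± 0.17 (adjusted p = 1.12e-06). Its level was 6.7 to 13.2 CPM in Col-0 (median 11.9) and 22.3 to 32.9 CPM in the mutant (median 26.1), again without overlap.

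Transporters of other nutrients were among the calls. NRT2.4 (AT5G60770), a high-affinity nitrate transporter, fell by 1.999 ± 0.42 (adjusted p = 0.0222). Its level was low, at 1.29 to 7.45 CPM in Col-0 (median 3.23) and 0 to 2.01 CPM in the mutant (median 0.84), from 92 and 22 counts in all. The Col-0 libraries of experiment B were the highest, at 5.17, 4.22 and 7.45 CPM, and the genotypes overlapped between experiments but not within either one. The main nitrate uptake gene NRT2.1 differed by -0.61 ± 0.25 (adjusted p = 0.597) and NRT2.5 by 1.21 ± 0.50 (adjusted p = 0.597). AAT1 (AT4G21120), a transporter of basic amino acids, rose by 1.34 ± 0.30 (adjusted p = 0.0377). It lay at 0.862 to 8.94 CPM in Col-0 (median 3.04) and 5.82 to 20.5 CPM in the mutant (median 11.1). The ranges overlapped between experiments, since Col-0 A2 and A3 lay above the lowest mutant libraries of experiment B, but not within either experiment.

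CYP89A9 (AT3G03470), a cytochrome P450 that modifies products of chlorophyll breakdown, stood at 4.74 to 14.2 CPM in Col-0 (median 7.06) and 15.3 to 27.5 CPM in phr1 phl1 (median 21.2), a rise of 1.35 ± 0.31 (adjusted p = 0.0467). CYP71B3 (AT3G26220), another cytochrome P450, went from 2.74 to 8.79 CPM (median 5.54) to 9.7 to 19.7 CPM (median 14.4), a rise of 1.33 ± 0.28 (adjusted p = 0.0226). Neither gene had overlapping groups. With 1 library left out, CYP89A9 passed the threshold in 1 of 12 fits and CYP71B3 in 6. The peroxidase AT4G37520 rose by 1.1 ± 0.23 (adjusted p = 0.0222), from a median of 92.2 to one of 223 CPM, and Col-0 A3 and B2, at 161 and 168 CPM, reached the lowest mutant library at 158 CPM. The UDP-glycosyltransferase AT3G46690 rose by 0.91 ± 0.21 and the berberine bridge enzyme-like protein AT1G30700 by 0.69 ± 0.16. TBL38 and AT2G31110 belong to the trichome birefringence-like family, which holds enzymes that acetylate wall polysaccharides. They rose by 0.57 ± 0.12 and 0.80 ± 0.18. Of the genes that fell, AT2G41640 is annotated as a family 61 glycosyltransferase. It went from 11.2 to 16.5 CPM in Col-0 to 5.09 to 9.28 CPM in the mutant (-0.87 ± 0.19, adjusted p = 0.0352).

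The other calls were small. NAC1 (AT1G56010), a transcription factor of auxin signalling in lateral root formation, rose by 0.64 ± 0.14, from 23.7 to 40.5 CPM to 41.7 to 60.7 CPM. Its annotation overlaps AT1G56000 and the non-coding RNA AT1G08087, both on the other strand. Those of PAP10, TBL38, AT2G41640 and AT5G39590 also each overlap 1 other gene. The F-box protein AT1G53790 rose by 0.89 ± 0.20, the cyclase family member AT4G34180 by 0.64 ± 0.15 and the TLD domain protein AT5G39590 by 0.37 ± 0.085. In these 3 the groups did not overlap. IQD17 (AT4G00820), of a family that binds calmodulin, fell by 0.43 ± 0.093, from 32.8 to 45.7 CPM to 21.7 to 34.6 CPM. The largest adjusted p among the 22 was 0.0467. NAC1, AT4G34180, TBL38 and AT5G39590 lie outside the rule for named genes and were added after their values were seen, to complete the 22.

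The experiments were then taken separately. Experiment A alone gave 53 higher (0.285%) and 25 lower genes (0.135%), and experiment B alone 6 higher (0.0323%) and 2 lower (0.0108%). Of the 22 genes, 14 passed in A and 6 in B, and the 6 were PHL1, AT1G07920, PHO2, ARP9, PAP10 and PHR1, which passed in both. TBL38 showed the largest gap among the small calls, with 0.94 ± 0.15 in A (adjusted p = 7.04e-05) and 0.14 ± 0.15 in B (adjusted p = 0.953). In A its mutant libraries were at 49.5 to 62.2 CPM against 26 to 29.1 CPM in Col-0. In B the mutant was at 34.6, 28.5 and 40.5 CPM against 30.4, 34 and 29.5 CPM. A test of the difference between the experiments found 0% of the 18583 genes past the threshold with edgeR, while 987 had an unadjusted p under 0.05. The smallest adjusted p was 0.608.

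**Figure D2:**
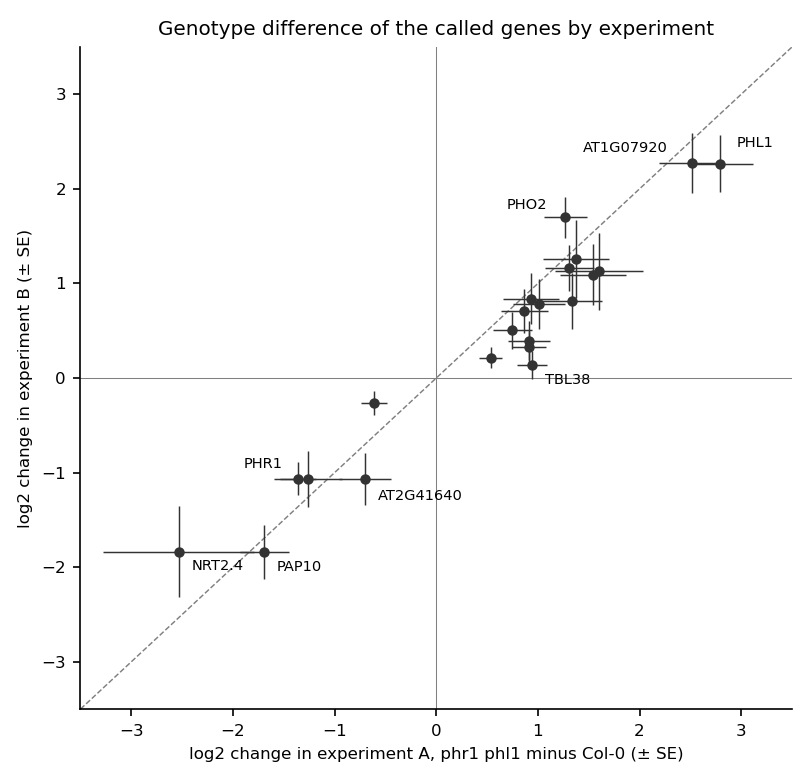
Log2 change of the 22 genes in experiment B against that in experiment A (phr1 phl1 minus Col-0, 3 and 3 libraries in each), with standard errors as bars and the line of equal change dashed. All 22 points lie in the quadrants of equal sign, and TBL38, at 0.94 and 0.14, lies near the horizontal axis.

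The promoters of the 22 genes were searched for the P1BS element, GNATATNC, the palindrome bound by PHR1, which reads the same way on both strands as a pattern. In the 250 bases before the annotated start, 1 of the 16 genes that rose (6.25%) and 1 of the 6 that fell (16.7%) held it, against 1011 of 18571 tested genes (5.44%). In 1000 bases the shares were 3 of 16 (18.8%) and 2 of 6 (33.3%), against 20.4%. With so few genes these shares are a description. The windows with a match are those of NRT2.4 and AT1G30700, shown with the element in capitals (TAIR10.1, plus strand, RefSeq annotation).
NRT2.4, chr5:24444115-24444364: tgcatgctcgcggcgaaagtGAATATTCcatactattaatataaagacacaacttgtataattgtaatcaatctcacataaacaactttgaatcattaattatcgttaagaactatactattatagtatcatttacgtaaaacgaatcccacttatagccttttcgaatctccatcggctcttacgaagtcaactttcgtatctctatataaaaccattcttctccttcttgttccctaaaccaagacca
AT1G30700, chr1:10892195-10892444: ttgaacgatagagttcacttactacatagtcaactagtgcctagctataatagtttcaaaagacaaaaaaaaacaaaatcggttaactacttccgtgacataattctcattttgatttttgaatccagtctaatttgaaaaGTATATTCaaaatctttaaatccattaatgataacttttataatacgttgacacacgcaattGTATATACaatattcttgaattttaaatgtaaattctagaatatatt
The match of NRT2.4 starts 230 bases before the start and those of AT1G30700 109 and 47 bases before it. PHO2 had 1 match 526 bases upstream, and PAP10 none in 1000 bases.

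The same genotypes were compared in the 5 other conditions of the series, which share no library with this comparison. The 6 genes that passed in both experiments also passed, with the same sign, in all 5. PHR1 and PHL1, the mutated genes, are among these 6. PHO2 was higher by 2.02 ± 0.16 at 5 µM phosphate with flg22, by 1.99 ± 0.16 and 2.26 ± 0.17 there without treatment and with MeJA, and by 0.86 ± 0.16 and 1.31 ± 0.16 at 1 mM phosphate without treatment and with MeJA. AT1G07920 differed by 2.46 to 3.02, ARP9 by 1.14 to 1.42 and PHL1 by 1.77 to 3.06 over the 5 conditions. PAP10 differed by -1.55 to -0.79 and PHR1 by -1.54 to -0.86. In PAP10 the mutant means ran from 14.1 to 18.6 CPM in those conditions and the Col-0 means from 30.3 to 52.5 CPM.

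Of the 22 genes, 10 passed with the same sign at 5 µM phosphate with flg22, where 0.404% of all genes passed. The counts were 11 at 5 µM without treatment (background 3.45%) and 13 with MeJA (4.77%). At 1 mM phosphate they were 6 with MeJA (0.102%) and 8 without treatment (1.17%). None passed with the opposite sign. In the untreated group at 1 mM phosphate, 1 mutant library, B1, went against its label, with 68.6 CPM of PHR1 (19.2 to 44.5 CPM in the other 5) and 20.3 CPM of PHL1 (45.03 to 81.5 CPM). Without it 6 of the 22 passed (background 0.0592%), and these were again the 6 genes above. That library is not among the 12 compared here.

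**Figure D3:**
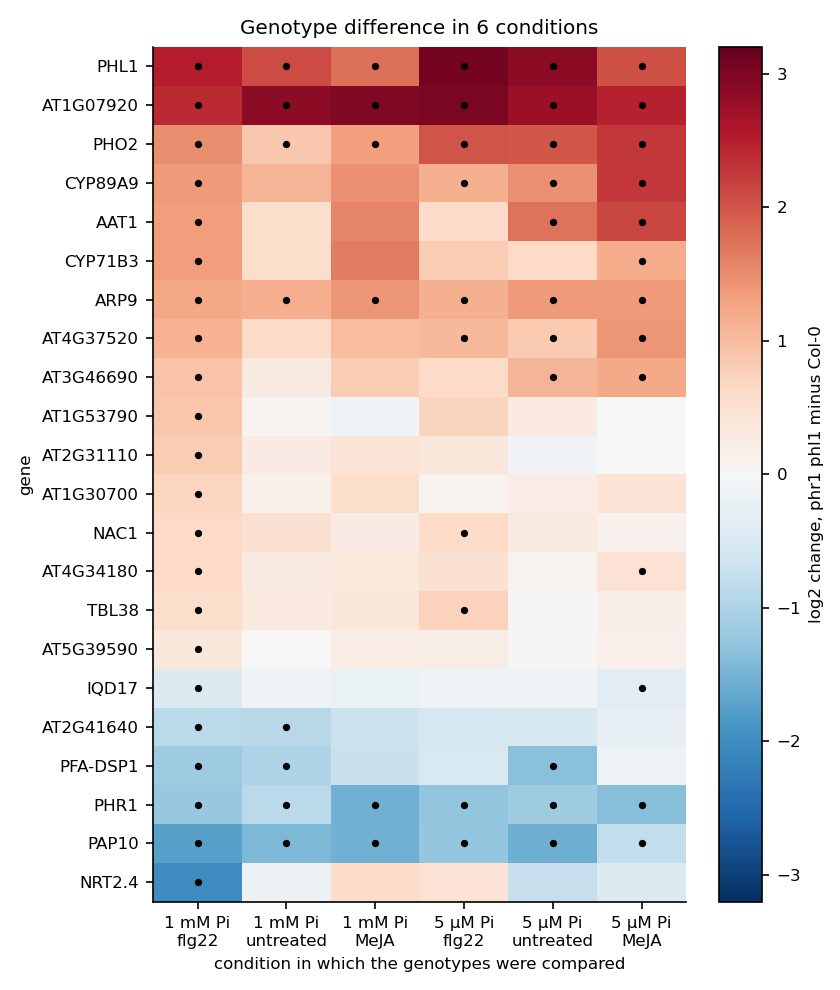
Log2 change (phr1 phl1 minus Col-0, 6 and 6 libraries) of the 22 genes in 6 conditions, as colour. Black dots mark an adjusted p under 0.05. PHL1, AT1G07920, PHO2, ARP9, PHR1 and PAP10 carry a dot in every column, and the column for 1 mM untreated includes the library that goes against its label.

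Calls in 1 condition and not in another are not shown to differ by that alone. AT1G30700, AT1G53790, AT2G31110, AT5G39590 and NRT2.4 passed in none of the 5 other conditions. NRT2.4 differed by -0.19 ± 0.36 without treatment at 1 mM phosphate and by 0.47 ± 0.55 with flg22 at 5 µM. With flg22 its Col-0 level was 3.72 ± 2.35 CPM at 1 mM and 0.624 ± 0.303 CPM at 5 µM (mean ± SD, n = 6). Untreated it was 3.34 ± 1.98 and 1.68 ± 0.712 CPM, and with MeJA 0.615 ± 0.976 and 0.798 ± 0.561 CPM. The genotype effect under flg22 minus that without treatment passed the threshold in 0% of 18583 genes with edgeR (1127 with an unadjusted p under 0.05, smallest adjusted p 0.0673), and DESeq2 called 2 higher and 52 lower with the library that goes against its label included. Without that library edgeR called 0, with 798 at an unadjusted p under 0.05 and a smallest adjusted p of 1. The genotype effect under flg22 at 1 mM minus that at 5 µM phosphate passed in 0% with edgeR (563 unadjusted, smallest adjusted p 1), and DESeq2 called 2. For NRT2.4 these interactions were -1.81 ± 0.56 (adjusted p = 0.391) and -2.47 ± 0.70 (adjusted p = 1). For PHO2 they were 0.63 ± 0.23 (adjusted p = 0.6) and -0.52 ± 0.23 (adjusted p = 1).

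The comparison was also described with 28 gene lists of 415 genes that cover nutrient, immune, hormone and tissue functions. In all, 377 members were tested, and 24 lists had no member past the threshold. The 5 members that passed were PHL1, PHR1, PHO2, PAP10 and NRT2.4. At an unadjusted p under 0.05 the lists held 62 members, 16.4% of those tested, against 6.19% of all genes. These lists were written with results of this series known, so this share is a description.

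**Figure D4:**
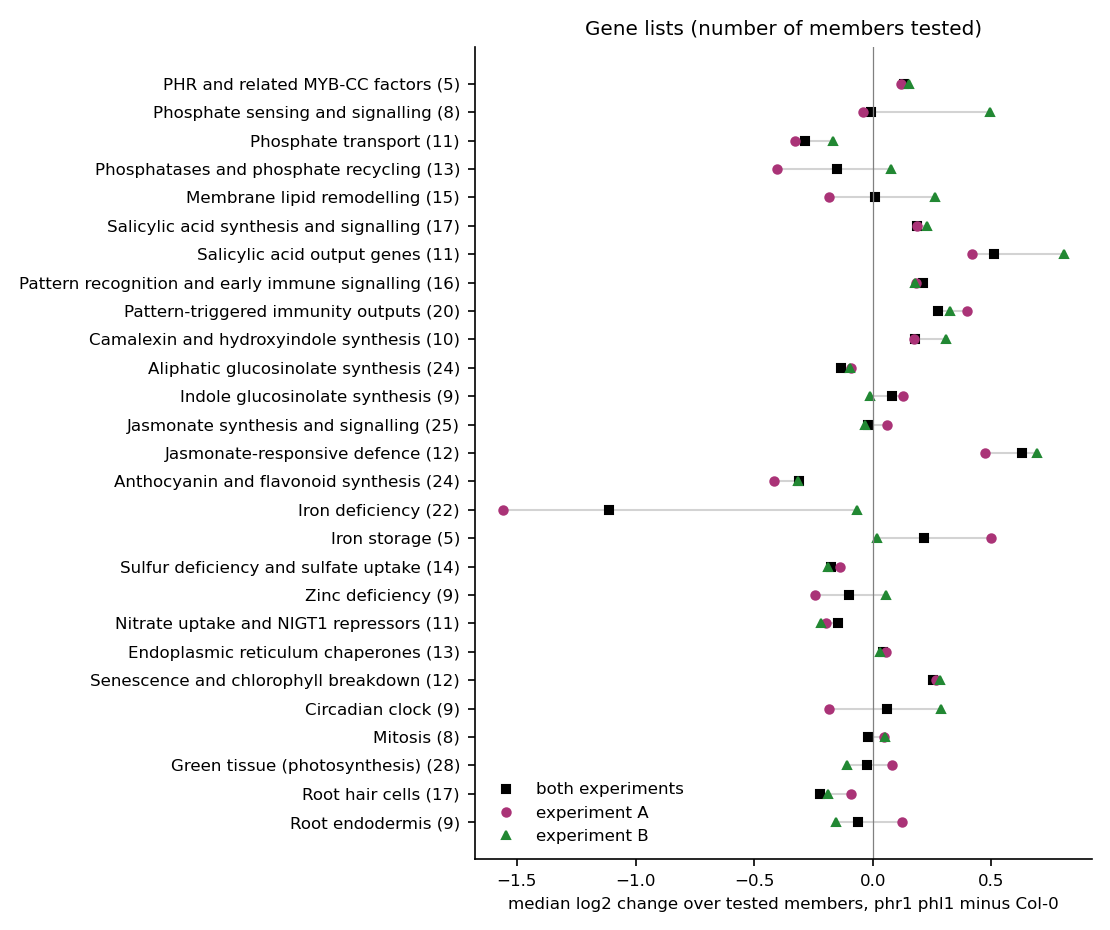
Median log2 change (phr1 phl1 minus Col-0) over the tested members of 27 gene lists, with the number tested in parentheses. Squares are both experiments together, circles experiment A, triangles experiment B. Iron deficiency genes lie lowest, at -1.11 together, -1.56 in A and -0.07 in B, and salicylic acid output and jasmonate defence genes highest.

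Immune genes were measured because flg22 was present in both groups. FLS2 lay at 3.02 to 14.5 CPM in Col-0 and 5.55 to 19.4 CPM in the mutant, a difference of 0.23 ± 0.36 (adjusted p = 1). BAK1 differed by 0.19 ± 0.087 (adjusted p = 0.724). BIK1 stood at 14.7 to 26.4 CPM in Col-0 (median 23.8) and 27.7 to 45.5 CPM in phr1 phl1 (median 32.4), without overlap. Its difference of 0.58 ± 0.14 had an adjusted p of 0.0678. In experiment A alone BIK1 passed (0.77 ± 0.19, adjusted p = 0.0415), and in B it did not (0.37 ± 0.20, adjusted p = 0.945). EFR, the receptor of a bacterial elongation factor, differed by 0.88 ± 0.26 (adjusted p = 0.205), and SOBIR1, a partner of receptor-like proteins, by 0.66 ± 0.20 (adjusted p = 0.242). The list of receptors and early signalling had 11 of 16 members with a positive change and a median of 0.21. Medians per library were also taken, as log2 CPM relative to the Col-0 mean of the same experiment. For this list they overlapped, at -0.214 to 0.172 in Col-0 and -0.0201 to 0.482 in the mutant.

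Pattern-triggered immunity outputs had 18 of 20 tested members with a positive change and a median of 0.28. The medians per library overlapped, at -0.4 to 0.554 in Col-0 (highest in A2) and -0.00293 to 0.594 in the mutant. At an unadjusted p under 0.05, 3 of them were higher, against 3.6% of all genes in that direction. The transporter PEN3 differed by 0.54 ± 0.20 (adjusted p = 0.468) and the receptor kinase IOS1 by 0.68 ± 0.28 (adjusted p = 0.563). Salicylic acid output genes had 10 of 11 positive and a median of 0.51, at 0.42 in experiment A and 0.81 in B. Here too the medians per library overlapped, at -0.523 to 0.802 in Col-0 and 0.316 to 1.18 in the mutant. Col-0 A2 (0.802) and B2 (0.587) lay within the mutant range. The pathogenesis-related gene PR1 was at 0 to 4.39 CPM in Col-0 (median 0.878) and 1.51 to 42.6 CPM in phr1 phl1 (median 17.2). Of the mutant libraries 5 lay above every wild-type library, and A1 at 1.51 CPM did not. The difference of 3.36 ± 0.92 (adjusted p = 0.141) did not pass. Genes of salicylic acid synthesis and signalling had a median of 0.19 and 0 calls, with DMR6, an enzyme that breaks salicylic acid down, at 0.70 ± 0.26 (adjusted p = 0.495).

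Jasmonate-responsive defence genes had a median of 0.63, with 10 of 12 positive. At an unadjusted p under 0.05, 1 gene was higher, against 3.6% of all genes in that direction. That gene was HEL, a pathogenesis-related protein of the PR4 family, at 1.09 ± 0.35 (adjusted p = 0.3). The median was 0.18 without mutant A3. Jasmonate synthesis and signalling genes had a median of -0.02 and 0 of 25 with an unadjusted p under 0.05. Camalexin and hydroxyindole genes had a median of 0.18. Of 10 tested, 1 was higher and 1 lower at an unadjusted p under 0.05 (3.6% and 2.59% of all genes). CYP82C2 was at 1.72 ± 0.56 (adjusted p = 0.335). CYP71A13 of the same list went the other way, at 9.44 to 34.2 CPM in Col-0 and 3.32 to 19.9 CPM in the mutant. Aliphatic glucosinolate genes had a median of -0.13. Of 24 tested, 1 was higher and 1 lower at an unadjusted p under 0.05 (3.6% and 2.59% of all genes). Their regulator MYB28 was at -0.52 ± 0.19 (adjusted p = 0.471). FMOGS-OX5 of the same list went the other way, at 19.8 to 37.1 CPM in Col-0 and 31.5 to 49.2 CPM in the mutant. Indole glucosinolate genes had a median of 0.08.

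Iron deficiency genes were lower in the mutant by estimate in all 22 tested members of 23, and 14 had an unadjusted p under 0.05, against 2.59% of all genes in that direction. None passed the adjusted threshold over both experiments. IRT1, the root iron transporter, lay at 120 to 306 CPM in Col-0 (median 243) and 21.1 to 159 CPM in phr1 phl1 (median 131), a difference of -1.07 ± 0.29 (adjusted p = 0.128). The ferric reductase FRO2 differed by -1.31 ± 0.34 (adjusted p = 0.0969), and S8H, an enzyme of coumarin synthesis, by -2.06 ± 0.52 (adjusted p = 0.0837). FIT, the regulator of IRT1 and FRO2, differed by -0.47 ± 0.14 (adjusted p = 0.245).

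The median of the list was -1.56 in experiment A and -0.07 in experiment B, beside 0.005 and -0.005 for all genes. In A, IRT1 was at 251, 306 and 120 CPM in Col-0 and 71.2, 121 and 21.1 CPM in the mutant. In B it was at 167, 235 and 257 CPM and 158, 159 and 142 CPM. The mutant library A3 had the lowest IRT1, FRO2 and S8H of all 12. Within A alone 5 members fell, namely S8H (-3.16, adjusted p = 0.00487), FRO2 (-1.95, adjusted p = 0.0441), IRT1 (-1.64, adjusted p = 0.0404), the beta-glucosidase BGLU42 (-0.97, adjusted p = 0.021) and the regulator PYE (-1.13, adjusted p = 0.0215), beside 0.135% of all genes. The difference between the experiments did not pass for any of them (S8H, A minus B, -2.64, adjusted p = 0.711). The list's median was -0.61 without Col-0 A2, which had the highest levels, and -0.92 without mutant A3. Of the iron storage genes, FER4 encodes ferritin and was at 0.64 ± 0.26 (adjusted p = 0.563), and FER1 was listed with 0 counts in the 12 libraries.

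**Figure D5:**
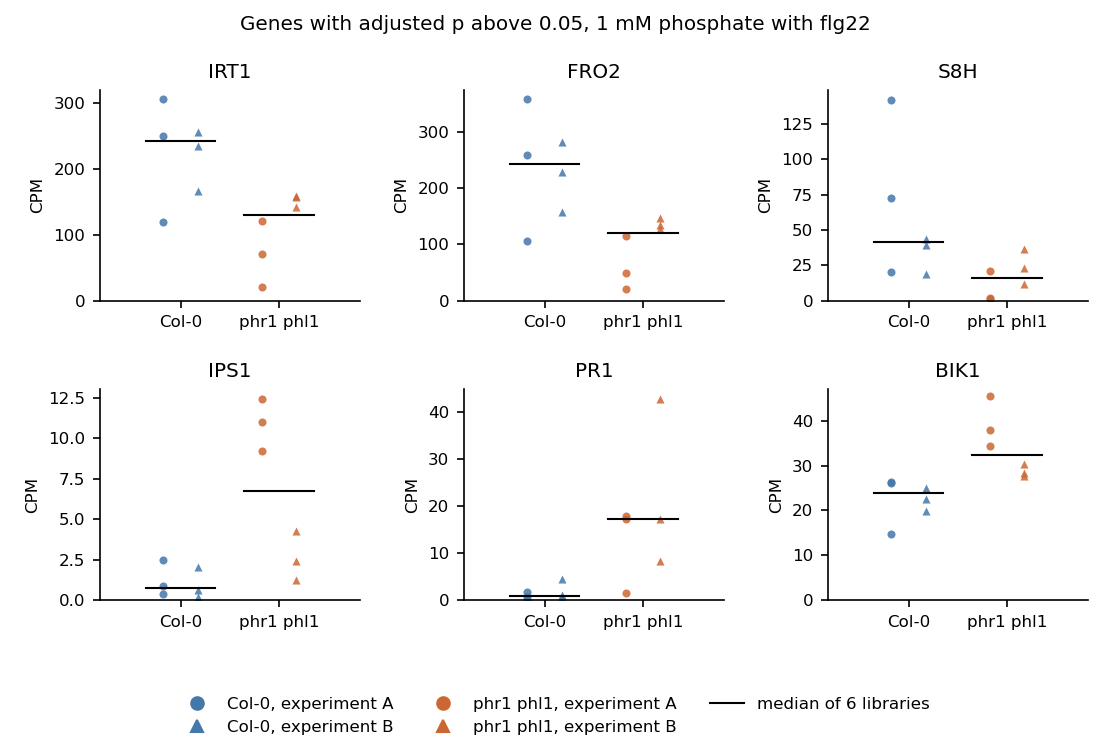
CPM of 6 genes with an adjusted p above 0.05 in the 12 libraries, by genotype. Circles are experiment A, triangles experiment B, lines the median of 6 libraries. The lowest IRT1, FRO2 and S8H are all in mutant A3, with 21.1, 20.5 and 0.906 CPM, the 3 highest IPS1 values are the mutant libraries of experiment A, and BIK1 alone of the 6 shows no overlap between the genotypes.

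Of 9 zinc deficiency genes tested, 2 were higher and 2 lower at an unadjusted p under 0.05, against 3.6% and 2.59% of all genes. The list median was -0.10, and only the 2 lower members are named here. NAS2, a nicotianamine synthase, was at 13 to 53.6 CPM in Col-0 and 8.15 to 27 CPM in the mutant (-0.85 ± 0.22, adjusted p = 0.0969), and the zinc transporter ZIP9 at -1.15 ± 0.31 (adjusted p = 0.137). Anthocyanin and flavonoid genes had 20 of 24 with a negative change and a median of -0.31. At an unadjusted p under 0.05, 7 of them were lower, against 2.59% of all genes in that direction. Their regulator TT8 was at -1.55 ± 0.60 (adjusted p = 0.527) and the enzyme DFR at -1.32 ± 0.59 (adjusted p = 0.68), the latter over a range of 5.48 to 118 CPM within Col-0. Senescence and chlorophyll breakdown genes had a median of 0.26. Of 12 tested, 4 were higher at an unadjusted p under 0.05, against 3.6% of all genes in that direction. SAG13 was at 2.23 ± 0.63 (adjusted p = 0.166) and the NAC factor ORE1 at 0.99 ± 0.28 (adjusted p = 0.177). Sulfur deficiency, nitrate uptake, endoplasmic reticulum chaperone, circadian clock and mitosis genes had medians of -0.18, -0.15, 0.04, 0.06 and -0.02.

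Among the tissue markers, green tissue genes had a median of -0.02 with 0 of 28 at an unadjusted p under 0.05. Endodermis genes had a median of -0.06 with 0 of 9, against 6.19% of all genes. Root hair genes had a median of -0.22, with 14 of 17 negative. At an unadjusted p under 0.05, 1 of them was lower, against 2.59% of all genes in that direction. Their medians per library overlapped, at -0.643 to 0.423 in Col-0 and -0.54 to 0.217 in the mutant. The peroxidase RHS19 of that list was at -0.40 ± 0.18 (adjusted p = 0.737). The part of these levels in the values above was not tested.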

How the data were processed

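The deposited table holds raw counts, whole numbers per Arabidopsis locus for 72 libraries and 27206 loci, of which 2725 are at 0 throughout. The authors made it from poly(A) RNA libraries that do not keep strand, prepared from 1000 ng of total RNA, per the labels' protocols. The submitters' processing notes name TAIR10, CASAVA 1.8, cutadapt 1.3, TopHat2 2.1.1 and HTSeq 0.6.1p1 without roles or order. Total counts ranged from 692426 to 6883818, and low counts limit precision in shallow libraries.

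Counts were tested with edgeR 4.0.16 in R 4.3.3: filterByExpr with a minimum count of 10 left 18583 loci, TMM scaling, and a robust quasi-likelihood fit over all 72 libraries with 12 groups and experiment as a covariate. P-values were adjusted by Benjamini-Hochberg over all tested loci at 0.05. Standard errors are the log2 change over the root of F. Values within an experiment come from a fit with a mean for each group in each experiment. Alternatives included DESeq2 1.42.0. Names, coordinates and sequences come from RefSeq TAIR10.1, and 26719 loci were named.

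Named genes were up to 12 that rose and 12 that fell, taken by size of change from the called genes whose direction matched between experiments and whose mean log2 CPM was 1 or more. In each list they were up to 5 members past the threshold or else the 2 with the smallest p, besides PHR1, PHL1, FLS2 and the phosphate lists. Other list members were named after their values were seen. The members and lists were chosen with earlier results of these data known. Same-numbered libraries deviated together in experiment A (correlations 0.12 to 0.255) but not in experiment B (-0.0528 to 0.0351), and no label says that a number marks a shared batch, so the numbers were not used as pairs.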

Additional observations from a re-analysis of the deposited data

Results flagged for a closer look

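Levels of 74 genes were screened in both groups of 6 libraries, and in 11 of 148 gene and group combinations 1 library stood far from the nearest other. Independent, normally distributed values would be flagged in about 1 in 20. The CPM of related genes need not follow that, so the number flagged is a description. Of the 11, 8 were in Col-0 and 3 in phr1 phl1.

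In Col-0, A2 was the highest library for BGLU42 at 72.8 CPM (next 37.9), CYP82C2 at 17.9 CPM (next 6.59), IOS1 at 81.5 CPM (next 45.1) and NRT2.5 at 6.91 CPM (next 2.52). Col-0 B1 was the lowest for ARP9 at 6.7 CPM (next 10.8) and for PAP12 at 25.3 CPM (next 33.0), and the highest for SPX4 at 24.4 CPM (next 20.4). Col-0 B2 was the highest for PR1 at 4.39 CPM (next 1.63).

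In phr1 phl1, A1 was the highest for DFR at 47.9 CPM (next 19.5) and for NRT2.5 at 12.3 CPM (next 5.13), and A2 was the highest for PYE at 32.7 CPM (next 19.8).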

How the results depend on the processing

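Against 16 genes higher and 6 lower, the counts were 11 and 6 with DESeq2 size factors, 10 and 6 with no filter on low counts, 51 and 7 with only the 12 libraries in the fit, 25 and 7 without the untreated library that goes against its label, 53 and 25 in experiment A alone, 6 and 2 in experiment B alone, and 37 and 11 with DESeq2. DESeq2 and the fit without that library called all 22 genes, and the 12-library fit 15 of them. Leaving out 1 library gave 4 to 28 higher and 2 to 9 lower genes. DESeq2 called 2 higher and 52 lower genes for the genotype effect under flg22 minus that untreated, and 2 higher and 0 lower for that at 1 mM minus that at 5 µM phosphate; the cause was not tested. The DESeq2 difference between experiments was not run. With the replicate number as a block, 10 genes were higher and 6 lower, 15 of them among the 22, and AT1G30700, NAC1, CYP89A9, AT3G46690, AAT1, AT4G34180 and AT5G39590 did not pass. Same-numbered libraries correlated at -0.0528 to 0.255 over 6 pairs. The 3 pairs of experiment A were over 0.1 and each correlated best with its own number, and the 3 of experiment B were not, so the numbers were not taken to pair the samples, though those of A may. None of the 22 genes turned its direction under these alternatives. List medians near 0 did change sign, with circadian clock genes at -0.185 in experiment A alone, phosphatases at 0.0786 and phosphate sensing at 0.494 in experiment B alone, and sulfur genes at 0.122 without Col-0 A1. Those of membrane lipid, zinc, endodermis, green tissue, mitosis, chaperone, indole glucosinolate and jasmonate synthesis genes also changed sign in at least 1 alternative. Of the 264 values of the 22 genes with 1 library left out, 142 passed the threshold and 122 did not. PHL1, AT1G07920, PHO2, PAP10, PHR1 and ARP9 passed in all 12 fits. The fewest passes were 1 of 12 for CYP89A9 and 2 of 12 for AT3G46690 and AT5G39590. Depth limits genes of few counts, such as NRT2.4 with 92 and 22.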
